A study of Schizosaccharomyces pombe with 4 samples.

Results

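The 367 regions described here are noncoding transcription units (nc-TUs, listed under names such as novelncTU_407) of fission yeast that share no nucleotide with a XUT of their strand. XUTs are the Xrn1/Exo2-sensitive unstable transcripts that the authors defined on the same 4 libraries, and the nc-TUs come from an earlier annotation of transcription units that the authors added to the ncRNAs of PomBase. Of the 487 nc-TUs listed, 99 overlapped a XUT and 388 did not. Among the latter, 21 had no read in any library, which leaves 367 of the 9139 features measured. The other features include 5129 mRNAs, 1638 XUTs and 1522 annotated ncRNAs. The 367 XUT-free nc-TUs were between 201 and 3829 nt long, with a median of 361 nt, and lay on chromosomes I (194), II (105) and III (68).

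Exo2 is the fission yeast form of Xrn1, the exoribonuclease that digests decapped RNA from its 5′ end in the cytoplasm. Many antisense long noncoding RNAs are held at low levels by this enzyme and accumulate without it. Other noncoding transcripts are removed in the nucleus by the exosome, while sn(o)RNAs, the small RNAs of splicing and of rRNA modification, are long-lived because they are packed in protein particles.

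The series holds total RNA of 2 biological replicates of a WT strain (YAM2394) and 2 of a strain with the label *exo2*Δ (YAM2397), in which the kanMX4 cassette replaces *exo2*. Both strains are h+ and carry *ade6-M210*, *ura4-D18* and *leu1-32*. All cultures were grown in rich YES medium at 32°C to mid-log phase. The signal is a density in tag/nt, meaning reads per nucleotide of a region, which the authors normalized on sn(o)RNA levels. Between 46964618 and 51019820 reads fell on features in each library, of which XUT-free nc-TUs received between 734981 and 969440. The typical one was thinly covered, with a median of 19 or 20 reads per library, and 56 of the 367 had fewer than 10 reads over the 4 libraries and were not tested.

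*exo2* itself had 0.488 and 0.458 tag/nt in WT, against 0.663 and 0.636 tag/nt in the *exo2*Δ-labelled libraries (log2 ratio 0.46, standard error [SE] 0.09, adjusted p = 0.00167 with limma). The targeted gene was thus not lower with this normalization. Its log2 ratio was -0.036 (adjusted p = 0.740) with scaling on total reads and -0.75 (adjusted p = 9.77e-04) with the median of ratios. Every direction given below rests on the labels. XUTs were chosen by the authors on this same contrast, and XUT-free nc-TUs are those that miss them. The ratio between the genotypes is therefore not independent of how the regions were chosen.

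Several of the densest nc-TUs overlie sn(o)RNAs. In the RefSeq annotation of assembly ASM294v3, 6 of the 367 share nucleotides of their strand with an sn(o)RNA, namely U2 (novelncTU_268), U3 (novelncTU_269), U4 (novelncTU_372), U5 (novelncTU_182), snR46 (novelncTU_468) and snR97 (novelncTU_6). The deposited table also lists these RNAs, but places 2 of them elsewhere. The U4 row of the table covers 129 nt at the 3′ end of novelncTU_372 and had 54 and 74 reads in WT against 38 and 45 in the *exo2*Δ-labelled libraries, whereas the whole nc-TU had 136081, 109976, 116382 and 114989 reads in the same order. In RefSeq, U4 shares 0 nt with that row and covers the first 123 nt of the nc-TU. The snR46 row of the table lies on the + strand and had 7, 5, 7 and 7 reads, whereas RefSeq places snR46 on the − strand, where novelncTU_468 had 90208, 87970, 104350 and 110873 reads.

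Both sequences are shown because they carry these RNAs, with the part annotated by RefSeq as the small RNA in capitals. They run 5′ to 3′ along the transcribed strand (RefSeq sequence, ASM294v3). The coding exons on either side of every nc-TU printed here have the same coordinates in this assembly and in the table (ASM294v2).
novelncTU_372 (first 300 of 379 nt, chrII:467312-467611, − strand), with U4 in capitals: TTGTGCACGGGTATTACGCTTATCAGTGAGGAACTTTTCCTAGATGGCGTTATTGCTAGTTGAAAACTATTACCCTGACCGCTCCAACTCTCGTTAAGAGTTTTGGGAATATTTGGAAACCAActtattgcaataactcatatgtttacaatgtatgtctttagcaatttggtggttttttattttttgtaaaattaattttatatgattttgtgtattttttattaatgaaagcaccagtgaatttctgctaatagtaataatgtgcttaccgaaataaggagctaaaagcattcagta
novelncTU_468 (225 nt, whole, chrIII:1717920-1718144, − strand), with snR46 in capitals: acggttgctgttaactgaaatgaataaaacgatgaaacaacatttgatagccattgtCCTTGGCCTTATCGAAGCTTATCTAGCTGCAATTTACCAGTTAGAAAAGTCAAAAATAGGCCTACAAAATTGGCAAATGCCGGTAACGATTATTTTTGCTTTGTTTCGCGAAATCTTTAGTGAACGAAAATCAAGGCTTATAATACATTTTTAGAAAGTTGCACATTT
The snR46 part ends 3 nt after an ACA triplet, the place of the ACA box in snoRNAs of the H/ACA family, which guide pseudouridylation of rRNA. The 4th most covered nc-TU, novelncTU_449, lay in no small RNA of the table or of RefSeq, which names a lncRNA there (SPNCRNA.7111) that the table does not list. Its sequence is given because it had the highest density among nc-TUs that hold no known sn(o)RNA.
novelncTU_449 (248 nt, whole, chrIII:926478-926725, − strand): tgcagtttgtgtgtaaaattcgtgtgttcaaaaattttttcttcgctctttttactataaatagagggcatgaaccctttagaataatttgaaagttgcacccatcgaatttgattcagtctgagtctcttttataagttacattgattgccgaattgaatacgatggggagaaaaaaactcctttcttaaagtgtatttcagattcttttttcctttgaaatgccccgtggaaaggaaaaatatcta

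**Figure D1:**
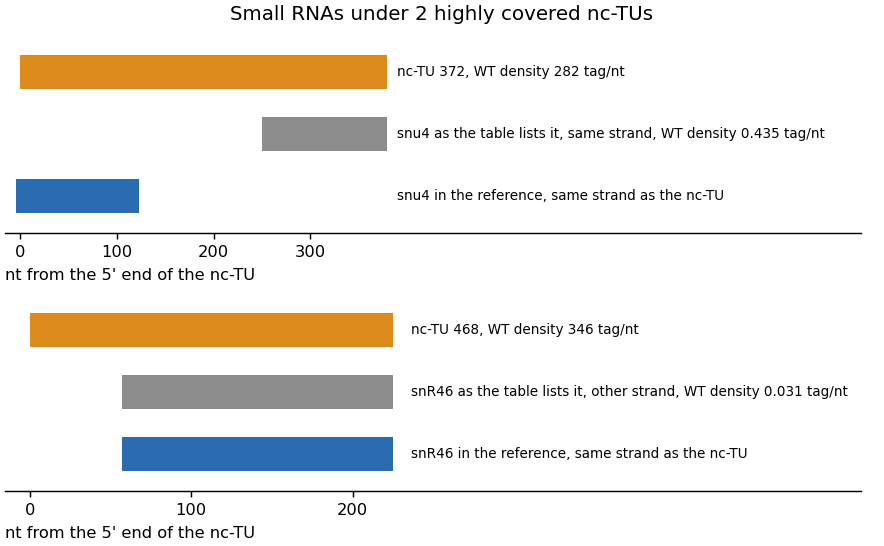
Maps of novelncTU_372 (upper panel) and novelncTU_468 (lower panel), with the distance from the 5′ end of the nc-TU in nt on the x axis and 3 bars each, for the nc-TU, the small RNA as the table lists it and the small RNA in RefSeq. WT densities (means of 2 libraries) were 282 and 346 tag/nt for the nc-TUs against 0.435 and 0.0310 tag/nt for the U4 and snR46 rows of the table.

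Densities of the XUT-free nc-TUs spanned almost the whole range of the transcriptome, but most were low. Their median was 0.0431 and 0.0408 tag/nt in the WT libraries, against 0.0524 and 0.0542 tag/nt in the *exo2*Δ-labelled libraries. Over the means of the WT libraries, the lower quartile was 0.0122 tag/nt, the upper quartile 0.123 tag/nt and the 90th percentile 0.338 tag/nt, against a median of 0.433 tag/nt for mRNAs, 0.0330 tag/nt for annotated ncRNAs and 0.0253 tag/nt for XUTs. A XUT-free nc-TU was therefore typically about as weakly covered as an annotated ncRNA, though the sets are unlike. The 21 nc-TUs without reads were left out, whereas annotated ncRNAs were not filtered on reads. Nc-TUs alone on their strand had a median of 0.0198 tag/nt. Only 14 had a mean WT density above 1 tag/nt.

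The 5 densest were led by novelncTU_269, which shares 164 nt with U3, the snoRNA needed for cleavage of the rRNA precursor. In WT it reached 1699 and 1708 tag/nt, against 1488 and 1419 tag/nt in the *exo2*Δ-labelled libraries, with a log2 ratio of -0.23 (SE 0.12, adjusted p = 0.105 with limma). novelncTU_468, the nc-TU over snR46, had 339 and 353 tag/nt in WT against 544 and 565 tag/nt, without overlap between the genotypes, and a log2 ratio of 0.68 (SE 0.09, adjusted p = 2.59e-04), below the 2-fold threshold. novelncTU_372, over U4, had 303 and 262 tag/nt in WT against 360 and 348 tag/nt. Those 3 lie within 2-fold of WT, as did the remaining pair. novelncTU_449 had 113 and 109 tag/nt in WT against 92.3 and 91.1 tag/nt. novelncTU_268, over U2 and divergent from *seb1*, had 78.4 and 78.5 tag/nt in WT against 95.8 and 91.4 tag/nt. Nc-TUs that share a strand with an sn(o)RNA listed in the table held between 71.1% and 80.1% of all reads on XUT-free nc-TUs. This leaves out novelncTU_468, as the listed snR46 row lies on the other strand. Since sn(o)RNAs set the normalization of the table, the ratios of nc-TUs over listed sn(o)RNAs are tied to it. For novelncTU_372 and novelncTU_468 this is not known, because the listed U4 and snR46 rows hold few of their reads.

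**Figure D2:**
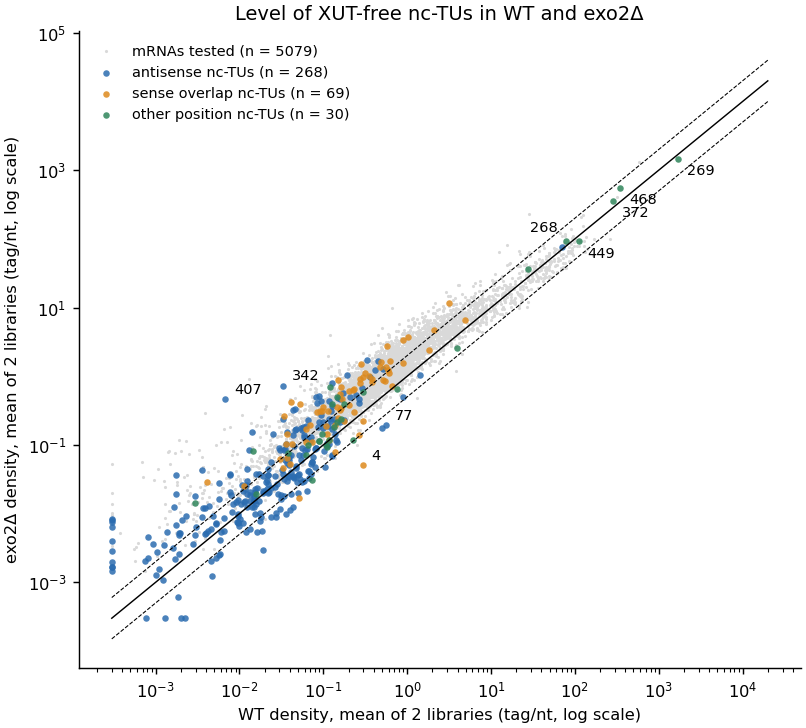
Mean density in WT (x axis) and in the *exo2*Δ-labelled libraries (y axis), both in tag/nt on log scales, for 268 antisense (blue), 69 sense-overlapping (orange) and 30 other XUT-free nc-TUs (green) over the 5079 mRNAs tested (grey). The solid line marks equal density, the dashed lines a 2-fold difference, and means of 0 are drawn as the leftmost column and lowest row of points. Most nc-TUs lie below 1 tag/nt, and the nc-TUs over U3, snR46, U4 and U2 lie close to the solid line between 78.5 and 1704 tag/nt in WT.

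The response of the XUT-free nc-TUs to the genotype was mixed, with rises, falls and many ratios within 2-fold. In limma's test across all features, 116 of the 311 tested were higher in the *exo2*Δ-labelled libraries (log2 ratio above 1 and adjusted p under 0.05) and 20 were lower (log2 ratio under -1). Among all features tested, 61.5% were higher and 0.918% were lower, so that the 37.3% of higher nc-TUs lies under this background and the 6.43% of lower ones above it. The nc-TUs made up 20 of the 81 lower features, beside 37 annotated ncRNAs, 14 mRNAs, 4 snoRNAs, 4 rRNAs and 2 tRNAs. The median log2 ratio of the nc-TUs was 0.62, with 0.62 for the libraries numbered 1 and 0.72 for those numbered 2, against 1.23 over all features and 1.08 over mRNAs. Of the nc-TUs tested, 162 had a log2 ratio between -1 and 1, and 89 had one below 0.

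These counts depend on the scaling of the libraries. With scaling on total reads, which lowers each log2 ratio by 0.49, 70 nc-TUs were higher and 42 lower, against 34.8% and 2.66% of all features. With scaling by the median of ratios, which lowers each by 1.21, 25 were higher and 89 lower, against 12.3% and 10.5%. All features include the XUTs, which were chosen for a rise on this contrast and which the nc-TUs exclude, and these scalings shift every feature alike, so that they are no independent support for the difference in shares. The 99 nc-TUs that overlap a XUT had a median log2 ratio of 1.62, with 91 higher and 0 lower, but this group was set apart by the contrast itself and no test is given. At the border between both groups, novelncTU_310 lay 5 nt from *XUT0667* and was kept (log2 ratio 3.74), while novelncTU_171 shared 9 nt with *XUT1139* and was not (2.18).

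The nc-TUs were mostly antisense to protein-coding genes. With a minimum of 50 nt opposite an mRNA, 268 of the 367 (73.0%) were antisense, and 235 of these lay over their whole length within the span of the gene. Another 19 covered the gene start, 13 the gene end and 1 a whole gene. Of the remaining nc-TUs, 69 overlapped an mRNA of their own strand, 52 of them in its 5′ leader, 14 in its 3′ trailer and 3 in its coding sequence. Any shared nucleotide sufficed for this class, so that such an nc-TU can reach beyond the mRNA. Only 30 fell in neither of these classes. They include 14 divergent ones, which start within 500 nt of the start of a gene on the other strand. The rest were 5 downstream and 2 upstream of a gene, 1 convergent and 8 with no gene end within 500 nt. With a minimum of 1 nt opposite an mRNA, 271 nc-TUs were antisense, 13 divergent and 4 downstream.

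The response differed in size between these positions. Among the 213 antisense nc-TUs tested, 66 were higher and 16 lower, with a median log2 ratio of 0.48. Those over a gene start had a median of 1.23, with 11 of 19 higher and 0 lower, and those inside a gene had a median of 0.41, with 51 of 180 higher and 16 lower. Nc-TUs that overlap an mRNA of their strand had a median of 1.30, with 43 of 69 higher and 3 lower. The 14 divergent nc-TUs had a median of 0.39, and 1 of them was higher. These medians moved together with the scaling, and those of antisense and divergent nc-TUs were at -0.012 and -0.10 with scaling on total reads. Differences between positions were not tested, since nc-TUs are not replicates and many overlap other features.

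**Figure D3:**
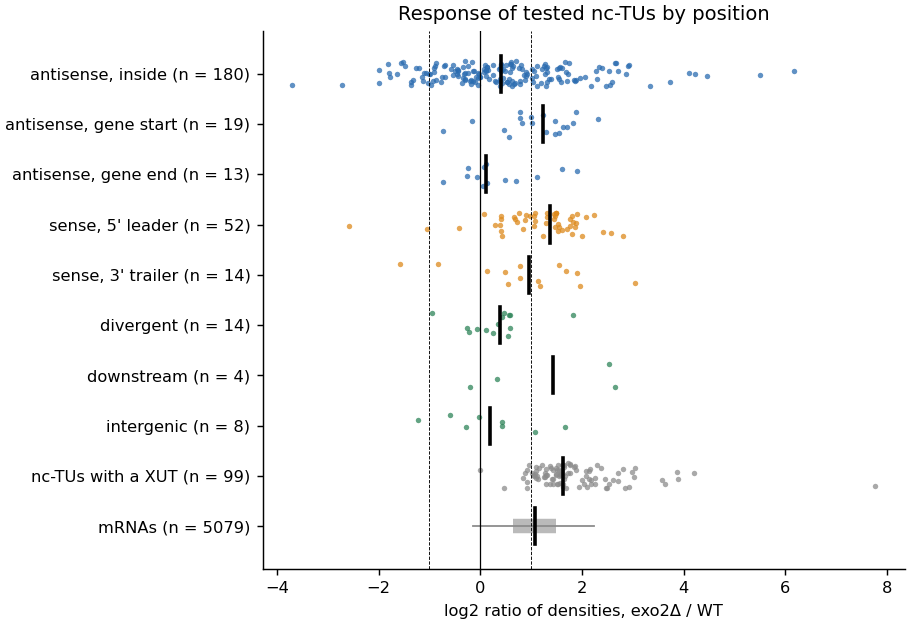
Log2 ratio of densities between the *exo2*Δ-labelled libraries and WT (x axis) for the XUT-free nc-TUs tested, by position (rows). Each point is 1 nc-TU, black bars are medians, dashed lines mark a 2-fold difference, and the lower rows show nc-TUs with a XUT and, as 5th to 95th and 25th to 75th percentiles, mRNAs. The median is 0.41 inside genes, where the values spread from -3.70 to 6.16, and 1.38 in 5′ leaders.

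Many of the nc-TUs share their strand with an mRNA. Of the 367 nc-TUs, 126 overlapped an mRNA of their strand, 57 of them while also being antisense to another gene. How the authors assigned reads shared by overlapping features is not stated in the sources used here. At U2, whose row lies wholly inside novelncTU_268, WT replicate 1 had 59758 reads on the U2 row and 59800 on the nc-TU. Shared reads were thus counted on both features there. The 58 antisense nc-TUs that overlap another feature of their strand had a median log2 ratio of 1.25, and the 210 alone on their strand (156 tested) had a median of 0.27, with 33 higher and 15 lower. Over all positions, the 236 nc-TUs alone on their strand had a median WT density of 0.0198 tag/nt, against 0.0415 tag/nt for all 367.

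Among nc-TUs with a mean of at least 20 reads per library, the 3 largest rises were antisense RNAs inside genes. Below this minimum, novelncTU_56 opposite *cbm1* (log2 ratio 5.50, with 1 and 0 reads in WT against 10 and 5), novelncTU_423 opposite *noc4* (4.23, with 2 and 0 against 5 and 4) and novelncTU_310 opposite *spg4* (3.74, with 1 and 3 against 21 and 16) were called higher too, and are named after their values were seen. The ratios of novelncTU_56 and novelncTU_423 can be overstated, since a WT library with 0 reads rests on the pseudocount added to each density. novelncTU_407 (chromosome II, 2378098 to 2378540, − strand) lies inside *nup44* (SPBC19G7.15), which encodes a nucleoporin. It had 5 and 2 reads in WT and 188 and 163 reads in the *exo2*Δ-labelled libraries, or 0.00953 and 0.00407 tag/nt against 0.498 and 0.422 tag/nt. This is a log2 ratio of 6.16 (SE 0.38, adjusted p = 8.15e-06), the largest of the nc-TUs tested. On the reads summed over both libraries of a genotype, the ratio was 66.6 with an exact 95% interval of 32.0 to 167, for counting error only. In WT the antisense RNA was far under the mRNA of *nup44*, at 0.400 tag/nt, and in the *exo2*Δ-labelled libraries it came close to it, at 0.460 tag/nt against 0.603 tag/nt. The mRNA had a log2 ratio of 0.59 (SE 0.09).

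The 5′ part of novelncTU_407 is shown as the region with the largest rise. It runs opposite to coding sequence of *nup44*, and 46.7% of the nc-TU is G or C.
novelncTU_407 (first 300 of 443 nt, chrII:2378241-2378540, − strand): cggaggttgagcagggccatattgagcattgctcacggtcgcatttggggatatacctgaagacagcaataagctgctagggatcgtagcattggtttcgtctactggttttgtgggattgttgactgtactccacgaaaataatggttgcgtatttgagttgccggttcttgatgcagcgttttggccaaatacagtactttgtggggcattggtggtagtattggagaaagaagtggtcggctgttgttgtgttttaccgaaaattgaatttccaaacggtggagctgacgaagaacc

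The second above the read minimum was novelncTU_342 (chromosome I, 4935392 to 4936077, − strand), inside *not3* (SPAC1B3.05), which encodes a subunit of the CCR4-NOT deadenylase complex. It had 29 and 23 reads in WT against 404 and 460, or 0.0357 and 0.0302 tag/nt against 0.691 and 0.769 tag/nt, a log2 ratio of 4.47 (SE 0.14, adjusted p = 2.10e-06). Just upstream on the same strand, novelncTU_343 rose as well, with 58 and 63 reads in WT against 241 and 264 (log2 ratio 2.47, SE 0.11, adjusted p = 2.91e-06). Both antisense RNAs exceeded the mRNA in the *exo2*Δ-labelled libraries, at 0.730 and 1.05 tag/nt, while *not3* itself stayed at 0.298 and 0.293 tag/nt in WT, against 0.303 tag/nt in both other libraries (log2 ratio 0.04, SE 0.10, adjusted p = 0.721).

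novelncTU_357 and novelncTU_356 form another such pair, inside SPAC29A4.02c on chromosome I. The former had 9 and 1 reads in WT against 36 and 44 (log2 ratio 4.10, SE 0.86, adjusted p = 0.00295), and the latter 11 and 11 against 48 and 58 (log2 ratio 2.66, SE 0.25, adjusted p = 4.93e-05). Here the mRNA was abundant, at 17.8 and 16.6 tag/nt in WT, and was at 10.7 and 9.90 tag/nt in the other libraries (log2 ratio -0.74). The antisense RNAs were at 0.0809% and 0.0765% of its WT density. With so few WT reads, the size of the first rise rests on single libraries, with a log2 ratio of 2.595 without WT replicate 2 and 5.61 without WT replicate 1.

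The remaining 2 of the 5 largest rises above the read minimum overlap mRNAs of their strand that rose too. novelncTU_120 shares 74 nt with SPAC29A4.23 and had 13 and 11 reads in WT against 87 and 99 (log2 ratio 3.36, SE 0.14), while the mRNA had a log2 ratio of 3.19 (SE 0.19). novelncTU_15, in the 3′ trailer of SPAC56F8.15, had 5 and 11 reads against 49 and 44 (log2 ratio 3.05, SE 0.37, adjusted p = 1.80e-04), and the mRNA a log2 ratio of 2.41. Without WT replicate 1 the rise of novelncTU_15 was 2.44, and without WT replicate 2 it was 3.66. novelncTU_343, novelncTU_356 and the nc-TUs at the XUT border were named after their values were seen.

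**Figure D4:**
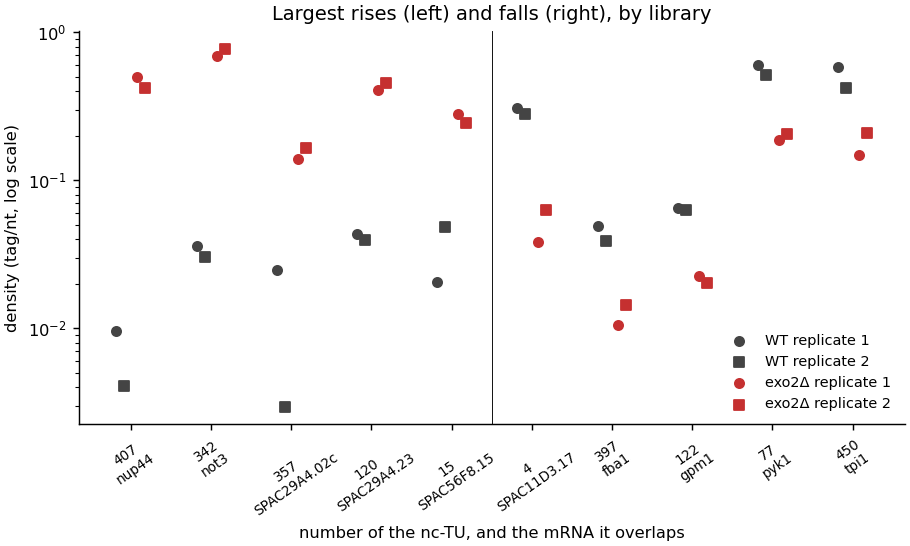
Density in tag/nt (y axis, log scale) in each of the 4 libraries for the 5 nc-TUs with the largest rises (left of the line) and the 5 with the largest falls (right), among those with an adjusted p under 0.05 and a mean of at least 20 reads per library. WT libraries are dark and those labelled *exo2*Δ are red, with circles for replicate 1 and squares for replicate 2. The genotypes do not overlap for any of the 10, by the rule that chose them.

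Falls were concentrated opposite abundant mRNAs. All 16 antisense nc-TUs that were lower lie inside their gene, as do 180 of the 213 antisense nc-TUs tested. The genes of the 16 had a median WT density of 47.6 tag/nt, from 6.78 to 261 tag/nt. The median was 0.307 tag/nt for the genes opposite nc-TUs that were higher. Of the 16 genes, 5 encode enzymes of sugar breakdown, the phosphoglycerate mutase *gpm1*, the triose-phosphate isomerase *tpi1*, the pyruvate kinase *pyk1*, the aldolase *fba1* and the pyruvate decarboxylase *pdc101*. Others encode the ribosomal proteins *rps801*, *rps802* and *rpl501*, the translation factors *tef3* and *tif51*, the glycyl-tRNA synthetase *grs1*, the amino acid synthesis enzymes *ilv3*, *ilv5* and *lys1*, and the chaperones *hsp90* and *ssc1*. The genes other than *fba1*, *gpm1*, *pyk1* and *tpi1* are named because they complete this set of 16, after their values were seen.

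The best covered of them was novelncTU_77 (chromosome I, 3845194 to 3846094, + strand), inside *pyk1* (SPAC4H3.10c). It had 644 and 516 reads in WT against 143 and 161 in the *exo2*Δ-labelled libraries, or 0.603 and 0.516 tag/nt against 0.186 and 0.205 tag/nt, a log2 ratio of -1.51 (SE 0.12, adjusted p = 2.01e-05). The *pyk1* mRNA had 141 and 135 tag/nt in WT against 69.2 and 74.3 tag/nt, a log2 ratio of -0.94 (SE 0.07). novelncTU_450, inside *tpi1* (SPCC24B10.21), had 217 and 147 reads against 40 and 58 (log2 ratio -1.48, SE 0.21, adjusted p = 4.11e-04), with a log2 ratio of -0.77 for the mRNA.

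novelncTU_397, inside *fba1* (SPBC19C2.07), had 65 and 48 reads in WT against 10 and 14 (log2 ratio -1.82, SE 0.33, adjusted p = 0.00141), and its mRNA was lower as well (log2 ratio -1.03, SE 0.07). novelncTU_122, inside *gpm1* (SPAC26F1.06), had 48 and 43 reads against 12 and 11 (log2 ratio -1.57, SE 0.23, adjusted p = 5.10e-04), and *gpm1* had the largest fall of these mRNAs (log2 ratio -1.40, SE 0.07), from 258 and 265 tag/nt to 99.0 and 98.7 tag/nt. These were the 2 mRNAs of the 16 that passed the threshold for a fall.

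The 5′ part of novelncTU_77 is shown as the best covered region that fell opposite an abundant mRNA. The nc-TU is 51.3% G or C. The 15 antisense nc-TUs that were lower and could be read from the reference had a median of 46.7%. The median was 41.6% for the 116 antisense ones not called and 38.9% for the 63 that were higher. Over the whole span of mRNAs it was 36.7%. Position differs between the lower and the higher ones, since all 16 lower ones lie inside a gene, against 51 of the 66 higher ones. The WT density of the opposite mRNAs differs too, with medians of 47.6 and 0.307 tag/nt. The difference in base composition was not tested.
novelncTU_77 (first 300 of 901 nt, chrI:3845194-3845493, + strand): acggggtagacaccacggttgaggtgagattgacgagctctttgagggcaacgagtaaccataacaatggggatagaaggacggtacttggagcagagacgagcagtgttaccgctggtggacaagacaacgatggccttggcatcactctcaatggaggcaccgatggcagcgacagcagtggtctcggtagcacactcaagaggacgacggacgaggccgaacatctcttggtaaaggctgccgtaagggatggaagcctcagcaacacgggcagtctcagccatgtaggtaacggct

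The antisense nc-TUs that fell were a small part of the signal at their gene. In WT their density was between 0.0244% and 1.09% of that of the mRNA on the other strand, and the mRNAs had a median log2 ratio of -0.50. The upper value belongs to novelncTU_72 opposite *lys1*, which also overlaps an mRNA of its own strand. Since the 16 were chosen for a log2 ratio under -1, a more negative ratio than that of the mRNA was nearly fixed by the choice and is not read further. Most were thinly covered, and 6 of the 16 had a mean of at least 20 reads per library. The + strand row of snR46, with 5 to 7 reads per library, had between 0.00761% and 0.0104% of the density of novelncTU_468 on the − strand. This locus alone is no measure for the strand opposite an mRNA. How much of the density of these antisense nc-TUs came from the mRNA of the other strand was not tested.

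The response of antisense nc-TUs was lower the more abundant the mRNA of the gene was in WT. Among antisense nc-TUs alone on their strand, opposite mRNAs of at most 1 tag/nt in WT, 24 of 75 were higher and 0 lower, with a median log2 ratio of 0.65. Opposite mRNAs above 1 and up to 10 tag/nt, 7 of 34 were higher and 2 lower, with a median of 0.40. Above 10 and up to 30 tag/nt, 2 of 14 were higher and 1 lower, with a median of 0.06. Above 30 tag/nt, 0 of 34 were higher and 12 were lower, with a median of -0.88, and the nc-TUs had a median of 0.0519% of the density of the mRNA. The mRNAs of all genes followed the same order, with medians of 1.21, 0.81, 0.12 and -0.25 in these 4 ranges. Scaling by the median of ratios lowers every ratio by 1.21 and would put the medians of all 4 ranges below 0, without changing their order.

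**Figure D5:**
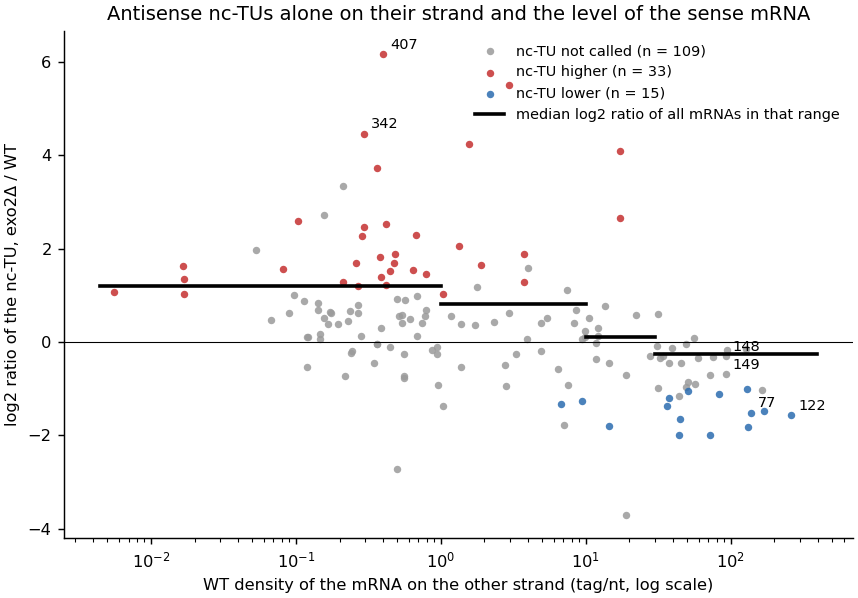
Log2 ratio of antisense nc-TUs alone on their strand (y axis) against the WT density of the mRNA on the other strand in tag/nt (x axis, log scale), for 157 pairs of nc-TU and mRNA. Red points were higher, blue points lower and grey points neither, and black lines give the median log2 ratio of all mRNAs in each range of density. All 12 blue points above 30 tag/nt lie in a range without red points.

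Over these 157 pairs, Spearman's rho between the log2 ratios of nc-TU and mRNA was 0.53, and between the WT densities of both it was -0.02. These values are descriptions over pairs that share their libraries and, in part, their genes. Of the 238 mRNAs opposite at least 1 XUT-free nc-TU, 29 had at least 2, and *gde1* had 4. Inside *tif51* (translation factor eIF5A), novelncTU_89 had a log2 ratio of -0.44 and novelncTU_90 one of -1.20. Inside *tef3*, a translation elongation factor, novelncTU_465 was lower (-1.99), novelncTU_467 had -1.15 (SE 0.61, adjusted p = 0.114), and novelncTU_466 had too few reads to be tested. The 4 in *gde1* were between 0.41 and 0.90, and none was called. Inside *ura1*, the values lay far apart, at -3.70 (SE 1.85) and -0.70, with neither called. Of the 24 genes with at least 2 nc-TUs tested, 3 held values on both sides of 0, namely *ssa2* (-0.99 and 0.61), *tif303* (-0.19 and 0.41) and SPAC57A7.05 (-0.53 and 0.12), and no nc-TU of these 3 genes was called. All these genes were named after their values were seen.

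Of the 237 mRNAs tested that lie opposite antisense nc-TUs, 98 (41.4%) were higher and 3 lower, with a median log2 ratio of 0.89, against 54.8% and 0.276% of all mRNAs tested and a median of 1.08. The difference in shares was not tested. These mRNAs had a median WT density of 0.626 tag/nt, against 0.433 tag/nt for all mRNAs, and the share that was higher ran from 58.2% of those up to 1 tag/nt to 0% of those above 30 tag/nt. Antisense nc-TUs that were higher lay opposite mRNAs with a median log2 ratio of 1.13. Of the 61 of these mRNAs tested, 35 (57.4%) were higher and 0 lower, near the 54.8% and 0.276% of all mRNAs. Among antisense nc-TUs alone on their strand, 7 of the 157 pairs tested had more antisense RNA than mRNA per nucleotide in WT, and 11 in the *exo2*Δ-labelled libraries. Over all 216 pairs the counts were 25 and 30, the rest being nc-TUs that overlap another feature of their strand.

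Nc-TUs that overlap the 5′ leader or 3′ trailer of an mRNA mostly followed that mRNA. The 52 in 5′ leaders had a median log2 ratio of 1.38, and the mRNAs they overlap one of 1.32. Of these, 34 nc-TUs and 35 of 49 mRNAs were higher. The density of the nc-TU was at a median of 92.9% of that of the mRNA in WT. Among the densest, named after their values were seen, novelncTU_418 in the leader of the peptide transporter gene *ptr2* rose from 3.14 to 11.5 tag/nt (log2 ratio 1.88, SE 0.07), and *ptr2* from 3.51 to 9.55 tag/nt. In the 5′ leader of the thiamine transporter gene *thi9*, novelncTU_20 had 4.91 tag/nt in WT against 6.53 tag/nt in the other libraries, below the threshold. Where an nc-TU overlaps the mRNA, the same reads can be counted on both, so that the 2 values are not separate measurements.

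Against this, the 3 nc-TUs of the sense-overlap class that fell overlap mRNAs that rose. Another lower nc-TU, novelncTU_72, also overlaps the 3′ trailer of an mRNA of its strand, but is classed as antisense to *lys1*. novelncTU_4 (chromosome I, 141772 to 142171, + strand) had the largest fall of all named nc-TUs and lies in the 5′ leader of SPAC11D3.17, within 500 nt of the start of SPAC11D3.16c on the other strand (log2 ratio 1.22). It had 145 and 125 reads in WT against 13 and 22 in the *exo2*Δ-labelled libraries, or 0.306 and 0.282 tag/nt against 0.0381 and 0.0631 tag/nt, a log2 ratio of -2.58 (SE 0.24, adjusted p = 4.74e-05). The mRNA of SPAC11D3.17, over its whole length, had 0.212 and 0.214 tag/nt in WT against 0.517 and 0.460 tag/nt, a log2 ratio of 1.20 (SE 0.10, adjusted p = 3.37e-05). The leader was thus above the whole mRNA in WT and far under it in the other libraries.

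The other 2 are named because they complete this set. novelncTU_421, in the 5′ leader of *nce103*, which encodes a carbonic anhydrase, had 66 and 65 reads in WT against 16 and 35 (log2 ratio -1.06, SE 0.32, adjusted p = 0.0164), while *nce103* rose from 2.04 to 10.3 tag/nt (log2 ratio 2.34, SE 0.07). novelncTU_371, in the 3′ trailer of SPBC1773.16c, had 22 and 26 reads against 6 and 6 (log2 ratio -1.58, SE 0.27, adjusted p = 0.00112), while the mRNA had a log2 ratio of 1.38 (SE 0.11). The fall of novelncTU_421 was uneven, with a log2 ratio of -1.57 for the libraries numbered 1 and -0.55 for those numbered 2. The 20th nc-TU that was lower, novelncTU_391, lies in an intergenic region of chromosome II, with 39 and 30 reads in WT against 12 and 10 (log2 ratio -1.23, SE 0.23).

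Nc-TUs that diverge from a gene rarely passed the threshold. Of the 14 in this class, 1 was higher (7.14%) and 0 lower, against 61.5% and 0.918% of all features tested. The class includes novelncTU_269 over U3 and novelncTU_268 over U2, whose ratios are tied to the normalization. The higher one was novelncTU_132 beside *pet802*, with 75 and 67 reads in WT against 182 and 194 (log2 ratio 1.82, SE 0.10). The most negative was novelncTU_430 at -0.95 (SE 0.16), divergent from the ribosomal protein gene *rpl3201*, which had a log2 ratio of -0.45. Counting also antisense and sense-overlapping ones, 49 nc-TUs started within 500 nt of a divergent gene, and 30 of these 49 mRNAs were higher and 0 lower (61.2% against 54.8% of all mRNAs), with a median of 1.09. Of the 46 of these nc-TUs tested, 10 were higher and 2 lower, against 37.3% and 6.43% of all nc-TUs tested. In the class of 14, by contrast, 6 of the mRNAs were higher (42.9%), with a median of 0.74. novelncTU_410, divergent from the splicing factor gene *prp1*, was abundant, at 28.6 and 25.9 tag/nt in WT against 37.7 and 35.7 tag/nt, and RefSeq names a lncRNA there (SPNCRNA.5756). novelncTU_132, novelncTU_430 and novelncTU_410 were named after their values were seen.

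Both nc-TUs near *act1*, which encodes actin, lie inside it on the other strand. novelncTU_148 had 22 and 19 reads in WT against 13 and 12 (log2 ratio -0.30, SE 0.23, adjusted p = 0.247), and novelncTU_149 had 18 and 18 against 7 and 10 (log2 ratio -0.69, SE 0.23, adjusted p = 0.0258). Neither passed the 2-fold threshold. The *act1* mRNA was at 94.0 and 90.4 tag/nt in WT against 97.7 and 106 tag/nt, so that the antisense RNAs were at 0.0469% and 0.0719% of its WT density. The longest nc-TU, novelncTU_210 with 3829 nt, covers the start of *gcd1* on the other strand and had 203 and 164 reads in WT against 239 and 235 (log2 ratio 0.79, SE 0.20, adjusted p = 0.00720).

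Few of the regions lay near XUTs, in part because the rule left out nc-TUs that overlap a XUT of their strand. No XUT of their strand was found within 500 nt for 341 of the 367, whose median log2 ratio was 0.59, against 0.69 for the other 26. All 20 lower nc-TUs were among the 341, which held 285 of the 311 nc-TUs tested, so that this lies near their share. Another 13 lay opposite a XUT, and 5 of these were higher (38.5%), near the 37.3% of all nc-TUs tested. RefSeq now names a lncRNA that the table does not list over at least 50% of 93 nc-TUs. These had a median log2 ratio of 0.43, with 11 of 64 tested higher (17.2%) and 3 lower (4.69%). Over all nc-TUs tested the shares were 37.3% and 6.43%, and over all features tested 61.5% and 0.918%.

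The motif TNAAAC, the DNA form of the core element bound by Mmi1, which sends meiotic RNAs to the nuclear exosome, was searched on the transcribed strand in the first 200 nt of each region, with overlapping matches allowed. It occurred in 93 of 338 XUT-free nc-TUs (27.5%), 33.4% of XUTs, 34.6% of annotated ncRNAs and 33.6% of mRNAs. On the other strand of the same windows it occurred in 31.4% of the nc-TUs. None of the 338 had at least 3 matches in the window, against 25 of the 1454 annotated ncRNAs. Of the sequences printed here, only novelncTU_468 holds the motif. Of 40 genes of RNA decay (decapping, the nuclear exosome and RNAi among them), 22 were higher and 0 lower, with a median log2 ratio of 1.06, close to the 1.08 of all mRNAs.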

How the data were processed

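Total RNA of 2 WT and 2 *exo2*Δ biological replicates was depleted of rRNA and sequenced as stranded paired-end libraries. Reads were mapped by the authors with TopHat (build ASM294v2). The deposited signal is a density, reads per nt of a feature normalized by the authors on sn(o)RNAs. The tool that counted reads and its handling of overlapping features are not given in the sources used here. The deposited sums over replicates were not used.

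Reads were recovered from the densities, since each density multiplied by its feature length fell on whole steps of its library (tolerance 0.01). Members and lists were chosen with earlier results of these data known. Features with at least 10 reads over the 4 libraries (8826 of 9139, without CDS lines) were compared as log2(density + 1.55e-04) with limma 3.58.1 (R 4.3.3, variance trend, checked on simulated data), with Benjamini-Hochberg adjustment across all of them. The pseudocount understates ratios of weakly covered features where every library has reads. Where a library had no reads, it lies below the density of 1 read and can overstate the ratio. With 2 libraries a genotype, no exact permutation test of 1 region can pass 0.05. All p-values rest on the model, and intervals cover counting error only.

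Named were the 5 densest nc-TUs in WT, the 5 largest rises and 5 largest falls (adjusted p under 0.05, at least 20 reads per library on average, genotypes apart), those within 1000 nt of *act1*, the longest, and RNA decay genes. Position classes are exclusive, in the order antisense, sense overlap, divergent, downstream, convergent, upstream, intergenic.

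RefSeq sequence and names are from ASM294v3. The highest table coordinates equal the lengths of chromosomes I and III there, 98.4% of coding exons have the same coordinates, and a start codon was found for 5115 of 5118 genes. Sequence was used for the 338 nc-TUs whose flanking coding exons are the same. Python 3.11.15, numpy 2.4.6, pandas 2.3.3 and matplotlib 3.10.9 were used.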

Additional observations from a re-analysis of the deposited data

How the results depend on the processing

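The counts of higher and lower nc-TUs (116 and 20) kept within 1.5 times under other pseudocounts, filters on reads, limma voom on the recovered reads and scaling on summed sn(o)RNA reads. Leaving out 1 library gave 102 to 124 higher and 19 to 27 lower, where the lone library was assumed to vary like the others. Without either WT library, limma set the spread of every feature to the common trend, so that p-values of those fits are too small. Of the 20 lower nc-TUs, between 14 and 18 stayed lower without 1 library, the fewest without *exo2*Δ replicate 2. The adjusted p of novelncTU_372, novelncTU_449, novelncTU_268, novelncTU_149 and novelncTU_210, which had missed the 2-fold threshold, rose above 0.05 without 1 library, to at most 0.197. Limma's treat against a 2-fold change gave 77 and 3, and nc-TUs alone on their strand 40 higher (181 tested). The scaling decided more. With total reads the counts were 70 and 42, and with the median of ratios 25 and 89. The median log2 ratio of the nc-TUs was then 0.12 and -0.58, against 0.69 on the sn(o)RNA sum, 0.78 at a minimum of 40 reads and 0.38 for those alone on their strand. For mRNAs opposite antisense nc-TUs it was 0.39 and -0.32, against 0.96 on the sn(o)RNA sum, 0.87 with a pseudocount of 5 times the smallest density, 0.87 at 40 reads, 0.89 with voom and 0.88 to 0.92 without 1 library. For divergent mRNAs it was 0.60 and -0.11, against 1.17 on the sn(o)RNA sum and 1.08 to 1.15 without 1 library. *exo2* was at -0.036 and -0.75, and at 0.46 (adjusted p = 1) in treat. Medians by position turned sign with total reads and the median of ratios for antisense (-0.012 and -0.72), divergent (-0.10 and -0.81) and intergenic nc-TUs (-0.29 and -1.005, and between -0.32 and 0.26 without 1 WT replicate), and with the median of ratios for convergent (-0.52) and upstream ones (-0.11). So did novelncTU_372 (-0.16 and -0.88), novelncTU_268 (-0.24 and -0.95), novelncTU_468 (-0.52) and novelncTU_210 (-0.42), the last 2 with the median of ratios alone. The median WT density of 0.0415 tag/nt was 0.0408 and 0.0431 without 1 WT replicate, 0.0198 for nc-TUs alone on their strand and 0.0571 for those with at least 10 reads. With the replicate number as a block, 117 nc-TUs were higher and 23 lower. Deviations of same-numbered libraries correlated at 0.283 over 5447 features, and the labels do not say that the numbers mark a shared batch.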
